A study of Mus musculus with 9 samples.

Results

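The 8 genes described here encode the retrograde machinery of intraflagellar transport in the mouse, namely the 6 subunits of the IFT-A complex (Ift122, Ift140, Ift43, Wdr19, Wdr35 and Ttc21b) and 2 subunits of its motor, cytoplasmic dynein 2 (Dync2h1 and Dync2li1). They were taken by name, with a rule that uses no measured value although earlier results of these data were known, as the rows of the count table whose Ensembl identifier carries these symbols in GENCODE M21, and all 8 were found among the 23074 genes of the table. Gene expression was profiled by RNA-seq at postnatal days 29 to 30 (P30) in decapsulated testes, with 1 library for each mouse, from 5 wild type animals and 4 Rfx2-/- animals, so that the replicates are separate animals. Both genotypes were of a mixed C57BL/6|129/Sv|FVB/N background and no treatment was given. RFX2 belongs to the RFX transcription factors, which bind the X-box motif in promoters of many ciliary genes. In the Rfx2-/- mice a single exon, which encodes much of the DNA binding domain, is excised by a Cre driven from a ubiquitous actin promoter, so that the deletion is not limited to germ cells. The mixed line kept the neomycin selection cassette, and littermates of the same age were used where this could be done. The comparison asked how the mRNA of the retrograde machinery differs between these testes.

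Intraflagellar transport moves cargo along the microtubules of cilia and flagella. Kinesin-2 carries trains of IFT-B and IFT-A particles towards the tip, and dynein-2 brings them back to the base. IFT-A is also needed for the entry of membrane proteins into the cilium. In the testis the machinery serves the assembly of the sperm flagellum, which begins in round spermatids.

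Promoter sequences are given first, since the mice lack a factor that binds the X-box. The X-box was searched as 14 letters, the half-site GTTGCC, the letters AT and the reverse complement of the half-site, GGCAAC, which read the same on both strands, and the best match in each RefSeq promoter window (GRCm38.p6, 250 bases before to 50 bases after the start of the gene) was kept. Over all 32851 windows the median best match was 8 of 14 letters. Windows were given for 6 of the 8 members and for the 3 other subunits particular to dynein-2, Wdr34, Wdr60 and Tctex1d2. The 4 windows with at least 11 matching letters are shown as the best match in capitals with 8 bases on each side. They lie at chr17:25015961-25015990 (plus strand) for Ift140, chr9:7177022-7177051 (minus strand) for Dync2h1, chr2:30048854-30048883 (minus strand) for Wdr34 and chr16:32419715-32419744 (plus strand) for Tctex1d2. The Dync2h1 window belongs to a RefSeq start that lies inside the GENCODE span of the gene (chr9:6928503-7184446) and not at its end.
Ift140: tggggcgtGTTGTGACGGCAACctcgcgcc
Dync2h1: gtgaagcgGTCGCCATAGCGACggagcttg
Wdr34: gcgggaccGTCGCCATGGCAATgtgcgcgt
Tctex1d2: tgagacccGTTGCCCTAGCGACctgtgccg

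Wdr34 had 12 matching letters, a number reached by 1.2% of all promoters, and the other 3 had 11, reached by 3.37%. The best matches of Ift43, Wdr35 and Wdr60 had 9 letters, reached by 48.0% of promoters, and those of Wdr19 and Ttc21b had 8, reached by 95%. A match of letters is a description of the window and not a binding site. In the study's list of genes with an RFX2 promoter peak, made by chromatin immunoprecipitation from younger testes, 4 of the 8 members were named (50%), beside 6.1% of the 15613 genes tested here. These were Ift122, Wdr19, Wdr35 and Dync2li1. The 3 other dynein-2 subunits were all on that list, as were 13 of 18 IFT-B genes (72.2%). Ift140 and Dync2h1, whose windows hold 11 matching letters, were not named on it. The list covers promoter peaks only, and whether the Dync2h1 window lay within a promoter as the study defined it was not examined.

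The libraries held 13574764 to 15193330 counts, with 28800855 in Rfx2-/- replicate 1, and the lowest count of any member in any library was 407. Levels are given in CPM, the count of a gene relative to the total of its library after TMM scaling. The targeted gene Rfx2 ranged from 471 to 624 CPM in wild type and had 199, 61.5, 151 and 173 CPM in the knockout libraries, without overlap (log2 fold change -1.91, SE 0.28, with an edgeR adjusted p of 7.81e-04). Of the 8 RFX family genes 2 were lower at an edgeR adjusted p of 0.05, Rfx2 and Rfx3, beside 7.31% of all genes. Rfx3 ranged from 39.5 to 58.9 CPM in wild type and had 19.0, 10.4, 19.8 and 13.7 CPM in knockout (log2 fold change -1.70, SE 0.21, edgeR adjusted p 1.52e-04). Both genes passed without Rfx2-/- replicate 2 too. Marker mRNA was detected for spermatogonia, meiotic cells, round and elongating spermatids, Sertoli, Leydig and peritubular cells and macrophages. No marker was at 0 in every library, which does not show that each cell type was present in each genotype. The study reports that Rfx2-/- spermatids arrest before they elongate. Rfx2-/- replicate 2 stood apart from the other knockout libraries by the length of transcripts. Against the mean of the other 3 knockout libraries, its log2 CPM had a median difference of 0.64 in 2864 genes with under 2 kb of merged exons, -0.47 in 4085 genes of 4 to 8 kb and -0.97 in 1052 genes over 8 kb. As 6 of the 8 members are over 4 kb, the values of the members and the counts of the gene lists are given with and without that library.

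The members were expressed at unequal levels in wild type testes. Per length of merged exons (RPKM from the TMM-scaled CPM), Ift140, a core WD repeat subunit of IFT-A, had 118 ± 3.11, Ift43, a small peripheral subunit, 111 ± 13, and Ift122, another core subunit, 104 ± 11.4 (SD, n = 5). The wild type ranges of these 3 genes overlapped. Within each wild type library Ift122 was below both Ift140 and Ift43, while the order of Ift140 and Ift43 differed between libraries. Wdr35 followed with 60.7 ± 6.29 RPKM and Ttc21b with 53.5 ± 2.99, again with overlapping ranges (53.4 to 67.0 and 49.5 to 56.2). Within each wild type library Wdr35 was above Ttc21b. Both motor genes were lower, Dync2li1 at 28.8 ± 0.83 and Dync2h1 at 26.2 ± 2.81 RPKM, and overlapped each other. Wdr19, also of the core, was lowest at 14.4 ± 0.95 RPKM and its range of 13.2 to 15.3 was apart from all others. Merged exons may differ from the transcripts expressed, and the SD covers animals only, so levels compared between genes are approximate. As the products of the 6 IFT-A genes share a complex, their shares of the summed IFT-A level per length were also computed. In wild type Wdr19 made up 3.11 ± 0.24% and Ift140 25.7 ± 0.97% of it (SD, n = 5).

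**Figure D1:**
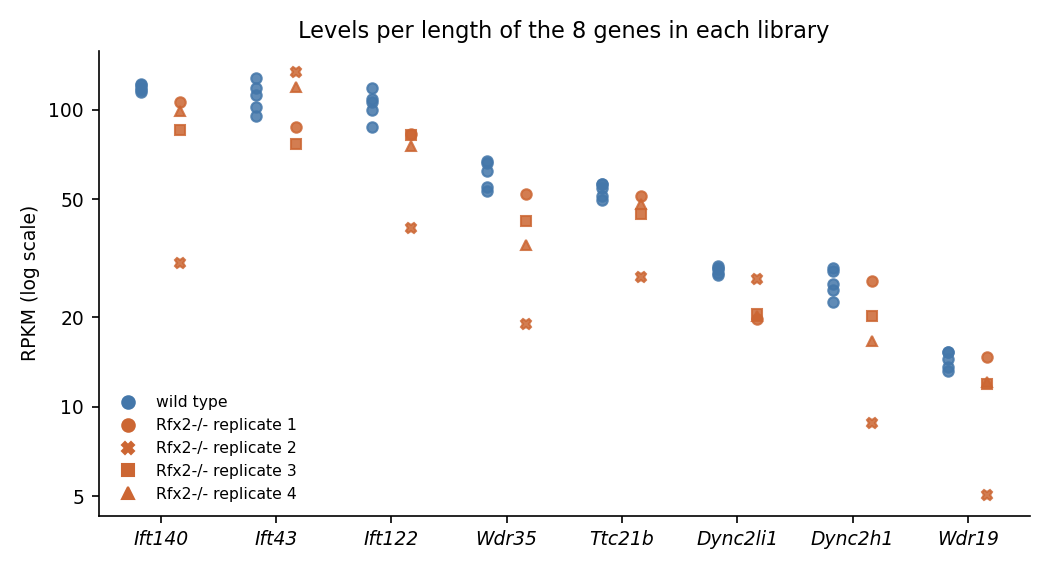
Level per length (RPKM, log axis) of the 8 members in each wild type and Rfx2-/- library, 1 point for each library. Wild type means run from 14.4 for Wdr19 to 118 for Ift140, and the lowest knockout point of every member except Ift43 and Dync2li1 is replicate 2.

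Over all 9 libraries the fitted log2 fold change was below 0 for 8 of 8 members, against 46.9% of all genes tested, and no member passed the test. The median over the members was -0.47 and that over all genes 0.032. Without Rfx2-/- replicate 2 the members' median was -0.30, again with 8 of 8 below 0. The median of all genes was 0.035 in that fit, for which the share of all genes below 0 was not computed. In that fit 2 of 8 members were lower at an edgeR adjusted p of 0.05 (Wdr35 and Dync2li1), beside 9.77% of all genes. The shares are over genes of all lengths, while 6 of the 8 members are over 4 kb, where replicate 2 was low. Over all libraries, at an edgeR adjusted p of 0.05, 0 of 8 members were lower and 0 higher, where 7.31% of all genes were lower and 3.48% higher. With the added limit of a 2-fold change at an adjusted p of 0.01, by which 3.68% of genes were lower and 0.826% higher, the count was also 0 in both directions. At an unadjusted p of 0.05, 3 members were lower (Ift122, Wdr35 and Dync2li1) and 0 higher, beside 13.7% and 13.9% of all genes. DESeq2 called 2 members lower (Wdr35 and Dync2li1, beside 9.61% of genes), and a limma voom fit with library quality weights, added after the data were seen, called 3, the same pair and Ift122 (beside 11.5% of genes). Every knockout library was below every wild type library in 4 of 8 members (Ift122, Ift140, Wdr35 and Dync2li1), which held for 9.7% of all genes, and above every wild type library in 0 of 8, beside 6.16% of genes. In whole testis, fewer cells of a type and less RNA in each cell cannot be told apart.

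**Figure D2:**
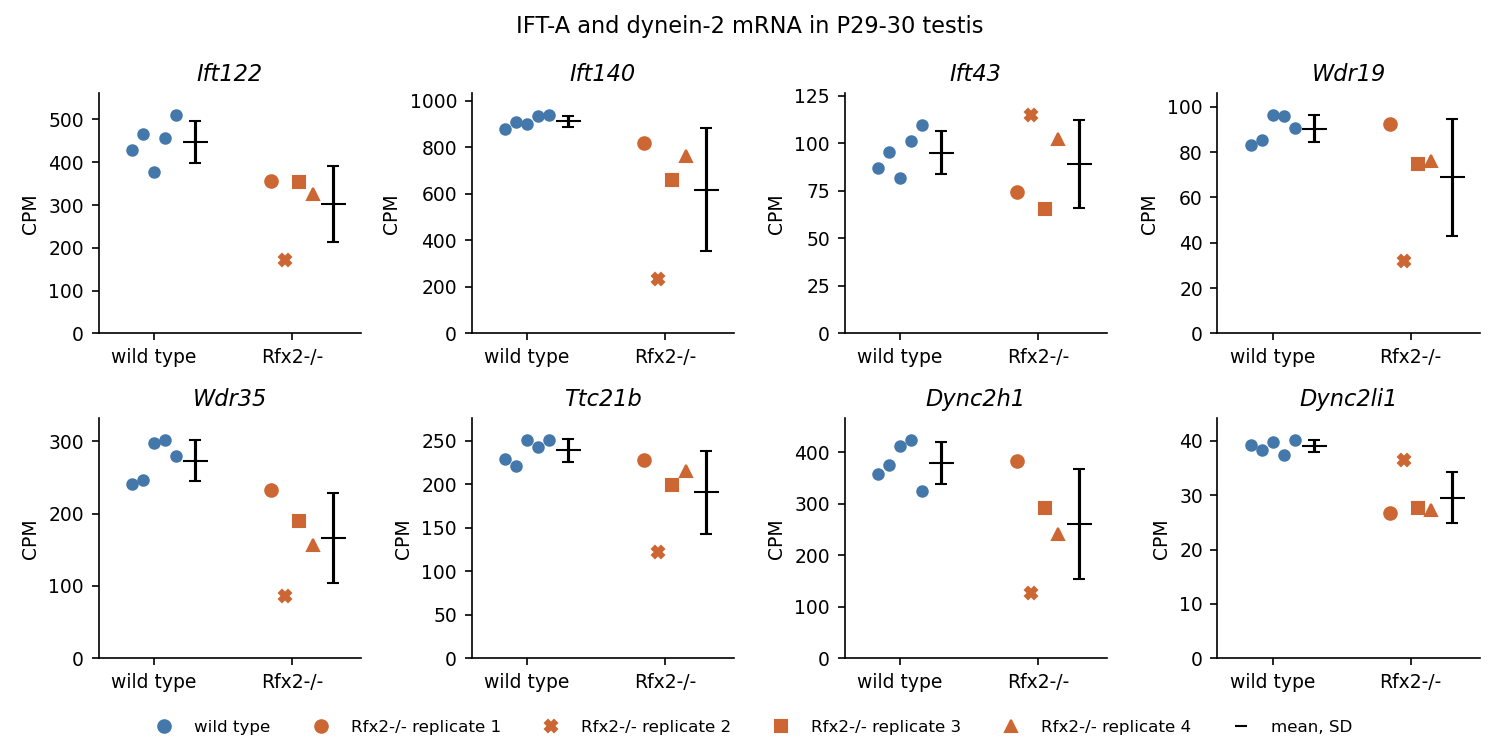
CPM of each member in the 5 wild type and 4 Rfx2-/- libraries, 1 panel for each gene with its own axis from 0, with points for libraries and a line and bar beside them for the mean and SD. The groups are apart in Ift122, Ift140, Wdr35 and Dync2li1, and replicate 2 is the lowest knockout library in the 6 genes over 4 kb.

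Wdr35, a peripheral WD repeat subunit of IFT-A (chr12:8973892-9028847, plus strand), showed the most negative fold change of the 8 over all libraries (without Rfx2-/- replicate 2 that was Dync2li1). It had 240.4, 247, 297, 302 and 279 CPM in wild type replicates 1 to 5 and 233, 85.5, 189.7 and 157 CPM in Rfx2-/- replicates 1, 2, 3 and 4. The groups did not overlap, although knockout replicate 1 was close to the lowest wild type library. The knockout mean was 60.9% of wild type, with a log2 fold change of -0.71 (SE 0.24, 95% interval -1.24 to -0.19) and an edgeR adjusted p of 0.0793. Without replicate 2 the value was -0.50 (SE 0.14) and passed the limit of 0.05 with an edgeR adjusted p of 0.0290, in a fit where 9.77% of all genes were lower at that limit. Over 15 alternative settings the adjusted p ran from 0.0188 to 0.163 and passed in 5, among them the omission of knockout replicate 1 (-0.89, edgeR adjusted p 0.0253, where 8.45% of genes were lower).

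Ift122, at chr6:115853470-115926699 (plus strand), had 428, 467, 377, 456 and 509.6 CPM in wild type and 357, 172, 355 and 325 CPM in knockout libraries. All knockout values were below the lowest wild type value, by a small margin except in replicate 2. The log2 fold change was -0.57 (SE 0.21, interval -1.02 to -0.11) with an edgeR adjusted p of 0.105. It was -0.37 (SE 0.12) without replicate 2, with an adjusted p of 0.0514 in edgeR.

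Ift140 (chr17:25016085-25099495, plus strand) had the highest CPM of the members. Its span overlaps Tmem204 on the opposite strand, with 0 shared exon bases. The wild type libraries had 880.1, 909, 900.3, 935 and 937 CPM and the knockout libraries 817, 235, 658 and 763 CPM. Again the groups were apart, with replicate 2 far below the others. The log2 fold change of -0.56 (SE 0.28, interval -1.18 to 0.059) did not pass (edgeR adjusted p 0.221), nor did the value of -0.29 without replicate 2 (edgeR adjusted p 0.100). It passed in none of the 15 alternatives.

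The remaining IFT-A subunits overlapped between genotypes. Wdr19 (chr5:65199696-65260415, plus strand) had 83 to 96.2 CPM in wild type and 92.5, 31.8, 74.8 and 76.1 CPM in Rfx2-/- testes, with a log2 fold change of -0.39 (interval -0.92 to 0.14; edgeR adjusted p 0.313). Ttc21b, a peripheral subunit with tetratricopeptide repeats (chr2:66184327-66256617, minus strand, overlapped by the antisense gene Gm13618 with 0 shared exon bases), had 221 to 251 CPM in wild type and 228, 122, 199 and 215 CPM in knockout, a log2 fold change of -0.32 (interval -0.71 to 0.065; edgeR adjusted p 0.257). Without replicate 2 these values were -0.15 and -0.16. Ift43 (chr12:86082541-86162459, plus strand) had 81.7 to 109.7 CPM in wild type and 74.5, 115, 65.5 and 102 CPM in knockout libraries, with replicate 2 the highest of all 9. Its log2 fold change was -0.092 (interval -0.48 to 0.30, edgeR adjusted p 0.767), and -0.24 without replicate 2 (edgeR adjusted p 0.326). With the trend on transcript length removed it was -0.33 (edgeR adjusted p 0.0985). It was below 0 in 12 of the 15 alternatives and turned positive in the others (0.0455 with total counts).

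Of the motor genes, Dync2h1 encodes the heavy chain that holds the motor domain, and Dync2li1 the light intermediate chain. Dync2h1 (chr9:6928503-7184446, minus strand) had 357, 376, 413, 424 and 325 CPM in wild type and 383, 128, 292 and 241 CPM in knockout libraries. Knockout replicate 1 lay inside the wild type range and the others below it. Its log2 fold change was -0.54 (SE 0.25, interval -1.09 to 0.014; edgeR adjusted p 0.192), and -0.31 without replicate 2 (edgeR adjusted p 0.196). Without knockout replicate 1, in which 8.45% of genes were lower, the value was -0.76 with an edgeR adjusted p of 0.0495. This was the only pass, as Dync2h1 passed in 1 of the 15 alternatives. With the trend on transcript length removed the value was -0.36 (edgeR adjusted p 0.0503).

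Dync2li1 (chr17:84626496-84655588, plus strand) varied little among wild type animals, with 39.3, 38.3, 39.8, 37.5 and 40.2 CPM. The knockout libraries had 26.7, 36.5, 27.7 and 27.3 CPM, all below wild type, and here replicate 2 was the nearest to it. The log2 fold change was -0.40 (SE 0.13, interval -0.69 to -0.11) with an edgeR adjusted p of 0.0743. It was -0.52 (SE 0.10) without replicate 2 and then passed, with an edgeR adjusted p of 0.00213. With the trend on transcript length removed from every library it was -0.58 (edgeR adjusted p 0.00255). In that fit 9.97% of all genes were lower at 0.05, and Wdr35 (-0.70, adjusted p 0.0266) and Ift122 (-0.55, adjusted p 0.0486) passed too. Over the 15 alternatives the adjusted p of Dync2li1 ran from 0.00213 to 0.219 and passed in 4.

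**Figure D3:**
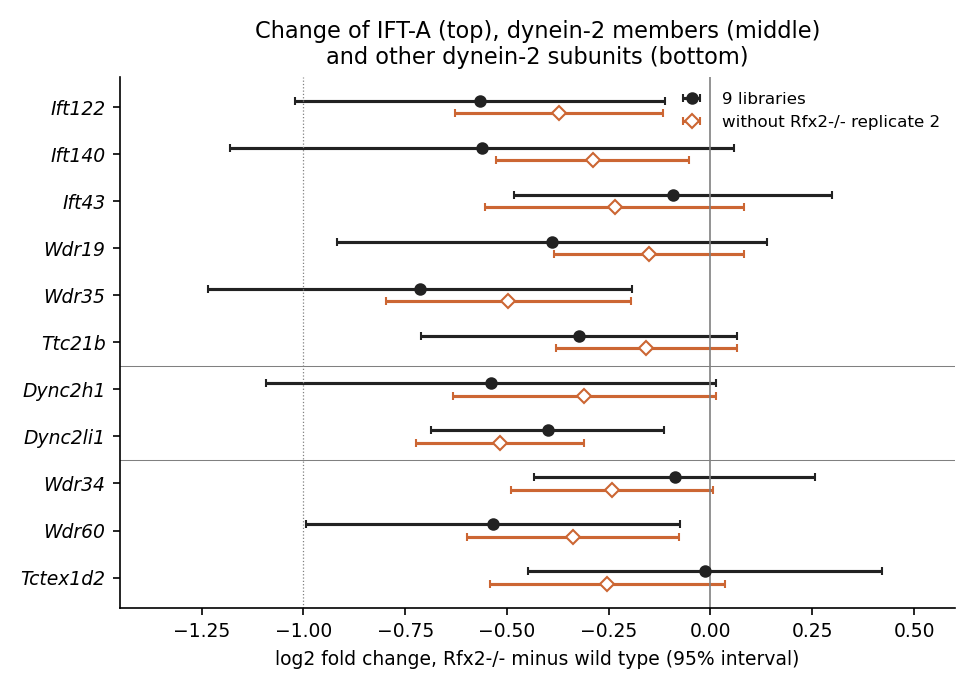
Log2 fold change (Rfx2-/- minus wild type) of the 8 members and 3 other dynein-2 subunits with 95% intervals, from all 9 libraries (filled) and without Rfx2-/- replicate 2 (open). The open intervals are narrower for most genes, and the open values of the members run from -0.52 for Dync2li1 to -0.15 for Wdr19.

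In the members, as in the medians of all genes, replicate 2 was higher for short and lower for long transcripts, though not in strict order of length. Ift43 (855 bases of merged exons) and Dync2li1 (1354 bases) were above the other knockout libraries, by 0.53 and 0.42 on the log2 scale. The 6 longer members were below them, from -0.81 in Ttc21b to -1.66 in Ift140. Of the 5 members of 4 to 8 kb, 4 (Ift122, Ift140, Wdr19 and Wdr35) lay under the lower quartile of genes of that length (-0.98). Dync2h1, with 14467 bases, was at -1.23, inside the quartiles of genes over 8 kb (-1.48 to -0.42). The heavy chain of cytoplasmic dynein 1, Dync1h1, of like length (14342 bases), was at -2.48. Median log2 values of the 8 members relative to wild type were -0.19, -1.43, -0.42 and -0.36 in knockout replicates 1 to 4.

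**Figure D4:**
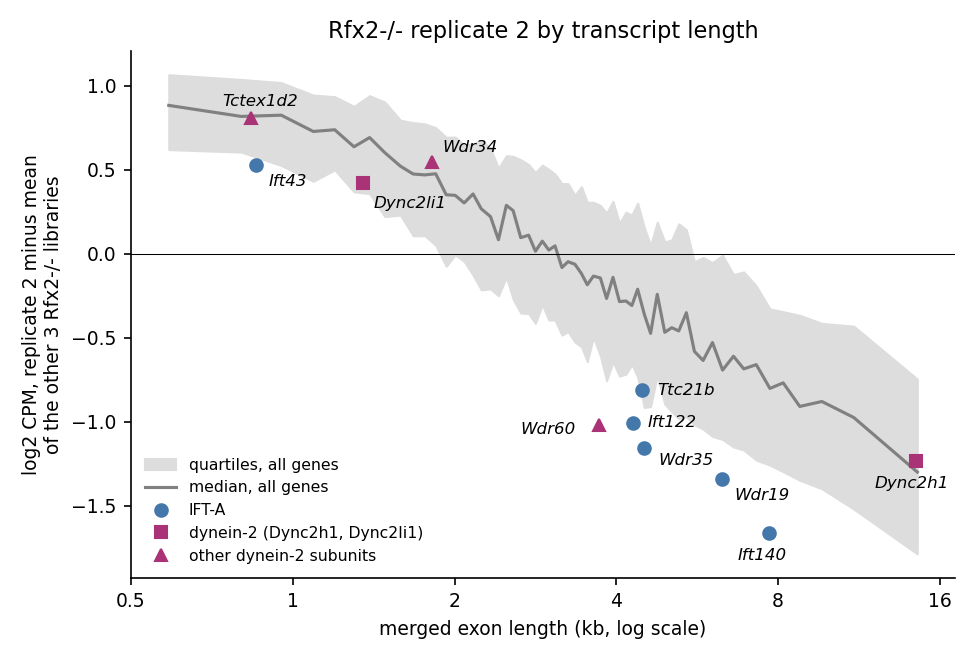
Log2 CPM of Rfx2-/- replicate 2 minus the mean of the other 3 knockout libraries against merged exon length (log axis, kb) for dynein-2 and IFT-A genes, over the median and quartiles of all genes. Members under 2 kb lie above 0 and members over 4 kb below it, Ift140 lowest at -1.66.

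Log2 ratios of levels per length within a library are given as a description, since the pairs were chosen with the values known, and were not tested. Wdr35 and Ttc21b have almost equal length (4501 and 4470 bases). Their log2 ratio in the wild type libraries was 0.061, 0.15, 0.23, 0.30 and 0.15, and that in knockout replicates 1 to 4 was 0.021, -0.52, -0.080 and -0.46. Knockout replicate 1 was close to the lowest wild type library and the others lay further below. The difference of the means was -0.44, and -0.35 without replicate 2. It was -0.18 for Wdr35 relative to Ift122, -0.26 for Ift122 relative to Ttc21b and -0.29 for Dync2li1 relative to Ift43, with overlapping groups in each pair.

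The other subunits of dynein-2 gave the following values. Wdr60, an intermediate chain, had 134, 142, 145, 177 and 168 CPM in wild type and 134, 59.6, 115 and 115 CPM in knockout libraries. Its groups did not overlap, although the margin was under 1 CPM, and its log2 fold change was -0.53 (SE 0.21, edgeR adjusted p 0.127), and -0.34 without replicate 2 (edgeR adjusted p 0.0794). Wdr34, the other intermediate chain, had a log2 fold change of -0.088 (edgeR adjusted p 0.746) and Tctex1d2, a light chain, -0.013 (edgeR adjusted p 0.974), and the sign of both turned with total counts (0.045 and 0.13). Without replicate 2 these genes had -0.24 and -0.25 (edgeR adjusted p 0.189 and 0.238). Over the 5 subunits particular to dynein-2, 5 of 5 were below 0 with a median of -0.40, and 0 passed at 0.05. Of all genes 46.9% were below 0 and 7.31% were lower at 0.05. Without replicate 2 the median of the 5 subunits was -0.31 and 1 of the 5 passed, Dync2li1, beside 9.77% of all genes lower.

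Among light chains that dynein-2 shares with other dyneins, a pair of paralogs moved in opposite directions. Dynlrb2, a roadblock light chain abundant in testis, had 58.0, 49.9, 45.1, 54.0 and 55.0 CPM in wild type and 26.3, 40.6, 25.4 and 29.2 CPM in knockout. It fell by 0.79 on the log2 scale (SE 0.16, edgeR adjusted p 0.00750), with no overlap. Dynlrb1, its widely expressed paralog, had 11.1 to 12.7 CPM in wild type and 16.4, 31.9, 19.2 and 18.8 CPM in knockout, and rose by 0.83 (SE 0.19, edgeR adjusted p 0.0142). Both passed at 0.05 in all 15 alternatives, with -0.96 for Dynlrb2 and 0.58 for Dynlrb1 without replicate 2. Their log2 ratio per length (Dynlrb2 over Dynlrb1) was 2.97 ± 0.16 in wild type and 1.37 ± 0.17 in Rfx2-/- testes, given as a description of a pair already seen to differ. The remaining 6 of the 8 shared light chains tested did not pass, with or without replicate 2. The median of the list was 0.21 with that library and -0.056 without it.

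Of the tubby family adaptors that associate with IFT-A, Tub fell by 1.1 on the log2 scale (SE 0.22, edgeR adjusted p 0.00582), from a wild type mean of 43.7 ± 2.91 CPM (SD, n = 5) to 25.2, 11.2, 18.5 and 26.4 CPM in knockout libraries. Without replicate 2 its value was -0.90. It passed at 0.05 in all 15 alternatives. Its relative Tulp3 had a log2 fold change of -0.048 and did not pass. Of 18 IFT-B genes, 3 fell at 0.05 and 2 rose (7.31% and 3.48% of all genes). Of the 18, 11 were below 0 and the median was -0.15. Without replicate 2, 5 fell and 2 rose (9.77% and 4.93% of all genes), with 15 below 0 and a median of -0.21. Those that fell over all libraries were Ift27 (-0.93), Ttc30a2 (-0.96) and Ttc30a1 (-0.56), and those that rose were Ift81 (0.95) and Ift74 (0.94), which form a dimer at the core of IFT-B. These 5 genes passed without replicate 2 too, and Ift172 (-0.46, edgeR adjusted p 0.0197) and Ttc26 (-0.41, edgeR adjusted p 0.0159) were then added to those that fell. The counts of the near-identical Ttc30 copies are uncertain, as reads shared between copies were discarded. In kinesin-2, 5 of 5 genes were below 0 (median -0.15), and in cytoplasmic dynein 1, 3 of 5 (median -0.024), beside 46.9% of all genes. In either list 0 passed. Without replicate 2 these counts were 4 of 5 (median -0.20, and Kif3c turned to 0.085) and 3 of 5 (median -0.033), again with 0 passing. The median of all genes without that library was 0.035.

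**Figure D5:**
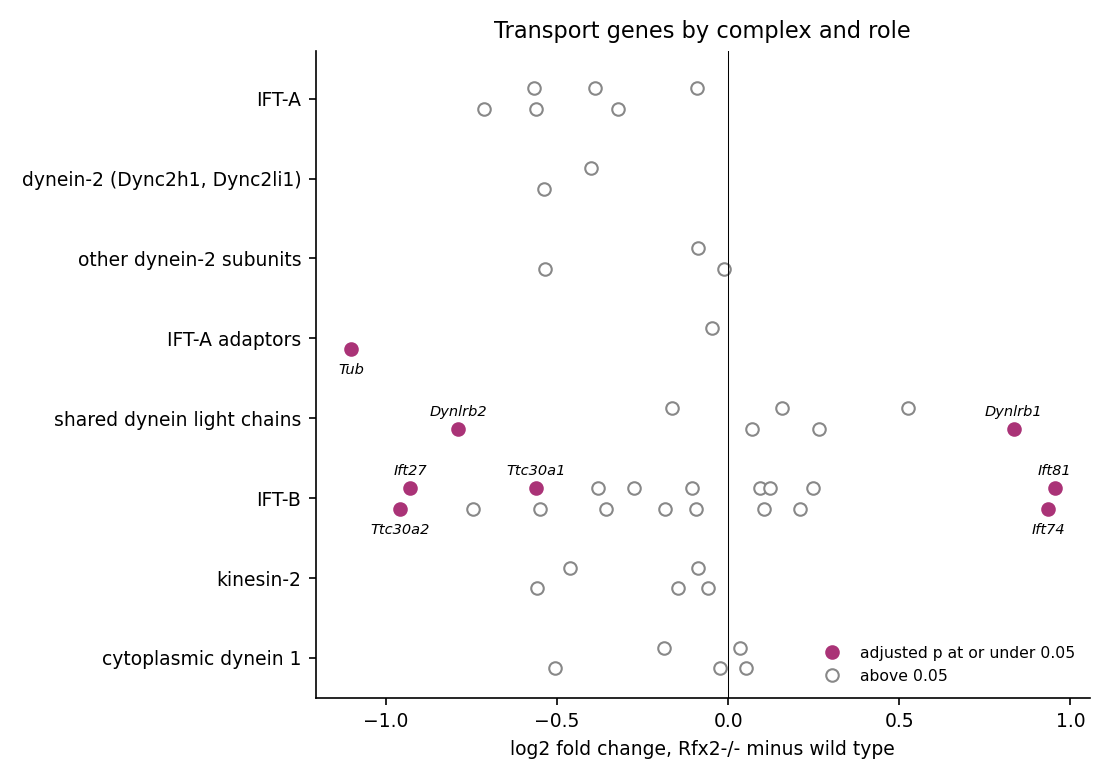
Log2 fold change (Rfx2-/- minus wild type) of each gene of the IFT-A, dynein, IFT-B and kinesin-2 lists, filled where the edgeR adjusted p is at or under 0.05. No IFT-A or dynein-2 gene is filled, Tub, Dynlrb2 and 3 IFT-B genes are filled on the left and Dynlrb1, Ift81 and Ift74 on the right, and Dynlt1b (3.38) is left out and Dynlt1c was not tested.

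Among markers of the cell types of the testis, those of elongating spermatids were mostly the ones that differed. All 12 were below 0 (median -0.71), with 5 lower at an edgeR adjusted p of 0.05, beside 46.9% and 7.31% of all genes. Without Rfx2-/- replicate 2, 9 were lower (median -0.85), beside 9.77% of genes. The summed level of the 12 was 9067 to 19290 CPM in wild type and 7278 to 11720 CPM in knockout, with overlap. Tnp1 was among the 5 (-1.12, edgeR adjusted p 0.0416) and Tnp2 was not (-0.77, edgeR adjusted p 0.0927). The study, with a p limit of 0.01, reports that neither mRNA is reduced. It adds that these mRNAs are held untranslated late in the round stage. The list therefore does not by itself mark elongating cells. Of 10 meiotic prophase markers 1 was higher at 0.05 (Sycp2, list median 0.34, and 0.19 without replicate 2). Of 8 Sertoli markers 1 was higher (Amh, list median 0.24, and 0.19 without replicate 2). The same genes passed without that library. Of all genes 3.48% were higher at 0.05, and 4.93% without replicate 2. No marker of round spermatids passed (median 0.15), and 1 was lower without replicate 2 (Tssk2; median 0.068). In the spermatogonia, Leydig, peritubular and macrophage lists no marker passed with or without that library. Their medians were 0.067, 0.19, -0.011 and 0.21 with it and -0.021, -0.13, 0.11 and 0.062 without it. Wild type replicate 3 had the lowest elongating sum of its group (9067 CPM, inside the knockout range), and its median over the 8 members was 0.051. The part of the cell type markers in the values of the members was not tested.

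Genes with the most similar pattern over the 9 libraries were found by the root mean square difference of log2 CPM, each gene centred on its own mean, among 12828 candidates. The nearest to Dync2h1 were Slc20a1 (0.0766), Yeats2 (0.0832) and Cep192 (0.0968), against a median over candidates of 0.573. The nearest to Ift140 were Dhx8 (0.0581), D430042O09Rik (0.06) and Cluh (0.0601), against 0.652. Merged exons of these 6 genes had 3537 to 8093 bases. In both Dync2h1 (-1.56) and Ift140 (-1.96) Rfx2-/- replicate 2 was the library furthest from the wild type mean on the log2 scale. It therefore weighs heavily in these patterns, and no search was made without it.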

How the data were processed

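The deposited file holds raw read counts per gene, which the authors made from single reads of 50 bases (HiSeq, TruSeq) mapped to GRCm38. The submitters' processing notes name CASAVA 1.8.2, STAR 2.4 and featureCounts 1.4.6. According to the methods, reads with several positions or over exons of different genes were discarded, and exons of protein coding isoforms were merged. Genes with near-identical copies therefore lose reads. Strand use is not given in the sources used here, and another read length and aligner are named elsewhere in the methods.

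Columns were assigned to mice through the animal numbers in the labels. Replicate numbers follow accession order without pairing, and no pair of libraries agreed within sampling noise (chi-square per gene at least 4.46). There were 0 unused columns of samples. Gene names came from GENCODE M21, which held 96.6% of the IDs.

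Genes kept by filterByExpr (15613) were fitted in edgeR 4.0.16 (quasi-likelihood F test, R 4.3.3, TMM, robust, genotype only) with Benjamini-Hochberg adjustment, after tests on simulated data. Alternatives used DESeq2 1.42.0, limma 3.58.1 (voom), other scalings and filters, a removed length trend (lowess, span 0.3) and each library left out. RPKM used merged exons of protein coding transcripts. Length classes and similar patterns required 50 counts on average, and log2 CPM a prior count of 2. Named genes were the members, Rfx2, the other dynein-2 subunits, genes of the pathway lists at an adjusted p of 0.05 or needed beside a result, and the 3 nearest patterns to Dync2h1 and Ift140. Members and lists were chosen with earlier results of these data known.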

Additional observations from a re-analysis of the deposited data

Results flagged for a closer look

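Dync2li1 in Rfx2-/- replicate 2 had 36.5 CPM, apart from the other 3 knockout libraries at 26.7 to 27.7 CPM by more than Dixon's 95% limit for 4 samples. Among 24 groups of values examined 1 was outlying, where chance gives about 1.2.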

How the results depend on the processing

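The members' median log2 fold change stayed below 0 in all 15 alternatives (-0.58 without Rfx2-/- replicate 1 to -0.30 without Rfx2-/- replicate 2), and the 7 members other than Ift43 were below 0 in each. The count of members lower at 0.05 was 2 with DESeq2 (beside 9.61% of all genes) and 3 with the length trend removed (9.97%). It was 3 with voom weights (11.5%), which were chosen after seeing the data. With a library left out it was 0 to 2, beside 5.44% to 9.77% of all genes. Wdr35 passed with DESeq2 (-0.71), the length trend removed (-0.70) and voom (-0.53), Dync2li1 with the same (-0.39, -0.58 and -0.49), and Ift122 with the length trend removed (-0.55) and voom (-0.43). With each library left out, Wdr35 ranged from -0.89 to -0.50, Dync2li1 from -0.52 to -0.32 and Dync2h1 from -0.76 to -0.31. Genes called higher were 198 with DESeq2 against 129. Total counts moved the median of all genes from 0.032 to 0.16 and turned Ift43 (0.0455), Wdr34 (0.045) and Tctex1d2 (0.13) positive, and Tctex1d2 was 0.00946 with all genes of at least 1 count. With a library left out these ranged from -0.24 to 0.0654, from -0.24 to 0.0422 and from -0.25 to 0.15. Counts of the lists without Rfx2-/- replicate 2 were added after seeing the data, and moved from 3 to 5 lower IFT-B genes, 5 to 9 lower elongating and 0 to 1 lower round spermatid markers. The cause was not tested. No paired analysis was possible because the labels give the genotypes no shared replicate numbers. With 5 and 4 animals the 95% intervals of 5 of the 8 members include 0, with lower bounds from -1.18 (Ift140) to -0.48 (Ift43), so that falls of up to these sizes lie within their intervals.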

Other observations

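Dynlt1b, a dynein light chain gene at chr17:6430112-6436296 with near-identical neighbouring copies, was present or nearly absent by library and not by genotype alone. It had 0.076, 0.077, 0.066, 15.04 and 0.078 CPM in wild type replicates 1 to 5 and 28.9, 65.3, 34.1 and 0.131 CPM in Rfx2-/- replicates 1 to 4. High and low libraries occurred in both genotypes, the fitted log2 fold change of 3.38 (SE 1.4) did not pass (edgeR adjusted p 0.148), and its value is uncertain because of the copies.

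Within the summed IFT-A level per length, Ift43 made up 24.0 ± 1.41% in wild type (SD, n = 5) and 22.1, 52.4, 22.3 and 30.7% in Rfx2-/- replicates 1 to 4. Ift140 made up 25.7 ± 0.97% in wild type and 26.9, 11.9, 24.9 and 25.5% in those libraries. The share of the shortest transcript was thus highest, and that of the longest IFT-A transcript lowest, in replicate 2.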
